A study of Homo sapiens with 2 samples.

Results

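The genes described here are 10 of the 59716 gene records of the RefSeq annotation of GRCh38.p14. They encode structural RNAs made by RNA polymerase III: RN7SK, RMRP, RPPH1, RNU6ATAC, RNY1, RNY3, RN7SL1, RN7SL2, VTRNA1-1 and VTRNA2-1. The genes were listed by name, and a peak was assigned to a gene when it lay within 1 kb of the gene's record. The data are 1 PRMT6 library and 1 PARP1 library from MDA-MB-231, a cell line of human triple-negative breast cancer, with no treatment, time or genotype difference named in the labels. PRMT6 is an arginine methyltransferase of histones, and PARP1 is a poly(ADP-ribose) polymerase that binds DNA breaks and chromatin. The study profiled them to find the genes both bind. The peak lists hold 9080 PRMT6 peaks and 11651 PARP1 peaks. With 1 library per antibody and no control library used here, no test between the libraries was possible, and every interval below covers counting error only.

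Polymerase III reads its genes from promoters of different build. In type 3 genes (RN7SK, RMRP, RPPH1, RNU6ATAC and the Y RNA genes) the control elements lie upstream of the RNA: a distal octamer or ZNF143 site, a proximal sequence element bound by SNAPc, and a TATA box. In type 2 genes, the model for the tRNA genes, an A box and a B box lie inside the transcribed sequence and are bound by TFIIIC. The 7SL and vault RNA genes have internal elements of this kind, helped by upstream sequence. The RNAs serve basic functions of every cell. 7SK holds the elongation factor P-TEFb inactive, 7SL is the scaffold of the signal recognition particle, and the RMRP and RPPH1 RNAs are the catalytic cores of RNase MRP and RNase P. U6atac belongs to the minor spliceosome, Y RNAs bind the Ro60 protein, and vault RNAs bind the vault particle.

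The sequences in which these elements can be read are shown first for members whose promoters were given in the RefSeq promoter table through a neighbouring gene. All are on GRCh38.p14 and written 5′ to 3′ along the polymerase III gene. Capitals mark the octamer, the proximal sequence element core and the TATA box where a search found them. RPPH1 and RMRP are shown because they carry these elements and the 2 highest PRMT6 peaks among the members. RN7SK is shown because both peaks cover the whole stretch, and RNY1 because neither list has a peak there. The 250 bases before the type 2 gene VTRNA1-1 were also available but are not shown. The search found none of its letters there, although 104 of these bases lie under the PRMT6 peak and all 250 under the PARP1 peak. The RPPH1 stretch is chr14:20343385-20343634, minus strand, and its last 27 bases belong to the RPPH1 record. The RMRP stretch is chr9:35658042-35658291, minus strand, ending 23 bases before the gene. The RN7SK stretch is chr6:52995285-52995534, plus strand, from 335 to 86 bases before the gene. The RNY1 stretch is chr7:148987277-148987526, minus strand, from 278 to 29 bases before the gene.
RPPH1: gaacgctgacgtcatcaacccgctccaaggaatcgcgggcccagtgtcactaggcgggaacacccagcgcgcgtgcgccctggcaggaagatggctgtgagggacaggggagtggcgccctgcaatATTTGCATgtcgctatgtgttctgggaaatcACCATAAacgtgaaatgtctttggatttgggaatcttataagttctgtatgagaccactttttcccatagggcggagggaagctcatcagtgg
RMRP: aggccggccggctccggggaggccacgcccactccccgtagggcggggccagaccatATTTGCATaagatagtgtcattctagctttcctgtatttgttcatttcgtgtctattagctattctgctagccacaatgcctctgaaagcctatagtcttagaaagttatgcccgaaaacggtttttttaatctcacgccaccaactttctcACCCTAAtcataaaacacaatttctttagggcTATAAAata
RN7SK: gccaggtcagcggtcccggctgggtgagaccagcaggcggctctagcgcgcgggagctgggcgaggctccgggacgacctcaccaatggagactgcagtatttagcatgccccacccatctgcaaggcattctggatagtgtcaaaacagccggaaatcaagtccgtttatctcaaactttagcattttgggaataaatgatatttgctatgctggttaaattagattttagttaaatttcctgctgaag
RNY1: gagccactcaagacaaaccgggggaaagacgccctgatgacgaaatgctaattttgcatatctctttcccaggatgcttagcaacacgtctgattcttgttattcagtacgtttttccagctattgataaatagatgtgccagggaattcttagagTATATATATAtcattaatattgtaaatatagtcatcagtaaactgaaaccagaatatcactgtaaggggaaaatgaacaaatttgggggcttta

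In the RPPH1 stretch the octamer ATGCAAAT lay on the opposite strand 97 to 90 bases before the gene, and the proximal sequence element core ACCNTAA 66 to 60 bases before it. In the RMRP stretch the octamer lay 215 to 208 bases before the gene, also on the opposite strand, the proximal sequence element core 63 to 57 bases before it and the TATA box 31 to 26 bases before it. Both strands were searched. Shares over RefSeq promoters were counted in windows of the 250 bases before each 5′ end. The octamer was found in 1.63% of 35116 such windows, the proximal sequence element core in 4.91%, and the TATA box (TATAAA or TATATA) in 12.8%. Octamer and proximal sequence element core stood together in 0.0911% of them, 32 windows. The RN7SK stretch held none of the letters searched, but it does not reach the bases next to the gene where a proximal sequence element and a TATA box would lie. The RNY1 stretch held only TATATA, in overlapping copies from 122 to 113 bases before the gene. It ends 29 bases before the gene, so a TATA box placed as in RMRP, 31 to 26 bases before it, could not be read. The ZNF143 core ACTACAA, present in 2.47% of windows, was in none of these stretches. The GC box GGGCGG, present in 42.6% of windows, was found in the RMRP stretch and, within the gene, in the RPPH1 stretch.

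Letters of the internal elements could be read in the vault RNAs. The 2 sequences below are the GENCODE transcripts of VTRNA1-1, which had peaks, and VTRNA2-1, which had none, with the A box core and the B box in capitals.
VTRNA1-1: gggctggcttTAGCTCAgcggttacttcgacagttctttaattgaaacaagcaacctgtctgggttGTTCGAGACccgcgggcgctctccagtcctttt
VTRNA2-1: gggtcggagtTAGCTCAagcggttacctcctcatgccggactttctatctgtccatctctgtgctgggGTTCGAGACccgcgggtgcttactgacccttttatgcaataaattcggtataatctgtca

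Both RNAs held the A box core TAGCTCA at positions 11 to 17 and a B box of the form GTTCNANNC with the same letters, at positions 67 to 75 in VTRNA1-1 and 69 to 77 in VTRNA2-1. The A box core was present in 1.76% of the promoter windows and the B box in 6.32%. Those windows lie before 5′ ends and were searched on both strands, so these shares are no baseline for letters inside an RNA. The longer A box TGGCNNAGT, present in 2.66% of windows, was in neither vault RNA. In the same search the RN7SL2 RNA, of a type 2 gene, held none of these letters. The RNY1 RNA, of a type 3 gene, held a B box, GTTCTACTC, at positions 67 to 75.

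A PRMT6 peak was found at 6 of the 10 genes (60%, 26.2% to 87.8%, exact binomial 95% interval) and a PARP1 peak at 7 of 10 (70%, 34.8% to 93.3%). At 6 genes a PRMT6 peak overlapped a PARP1 peak. RN7SL1 had a PARP1 peak only. RNY1, RNY3 and VTRNA2-1 had no peak in either list. Listed peaks held a median of only 4 PRMT6 or 6 PARP1 fragments, so a missing peak does not show missing binding. The part of depth in these absences was not tested. A PRMT6 peak was present at 13.3% of all gene records, a PARP1 peak at 15.8% and overlapping peaks of both lists at 7.80%. The members are short, from 98 to 341 bases, and a short record meets fewer peaks. Among the 16218 records of at most 1 kb the shares were 2.34%, 3.11% and 1.62%, and among the 3837 short noncoding records they were 5.29%, 7.82% and 4.04%. Within 1 kb of the 5′ end of 19719 protein-coding genes they were 16.3%, 20.0% and 11.7%. The lower ends of the members' intervals lay above all of these shares. This is a description, since the genes were chosen with results of these data known. At RN7SK, RMRP, RPPH1 and VTRNA1-1 the start of another gene lay under the best peaks or at most 129 bp from them. The counts therefore do not show to which gene of such a pair a peak belongs, and the part of these neighbours was not tested.

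**Figure D1:**
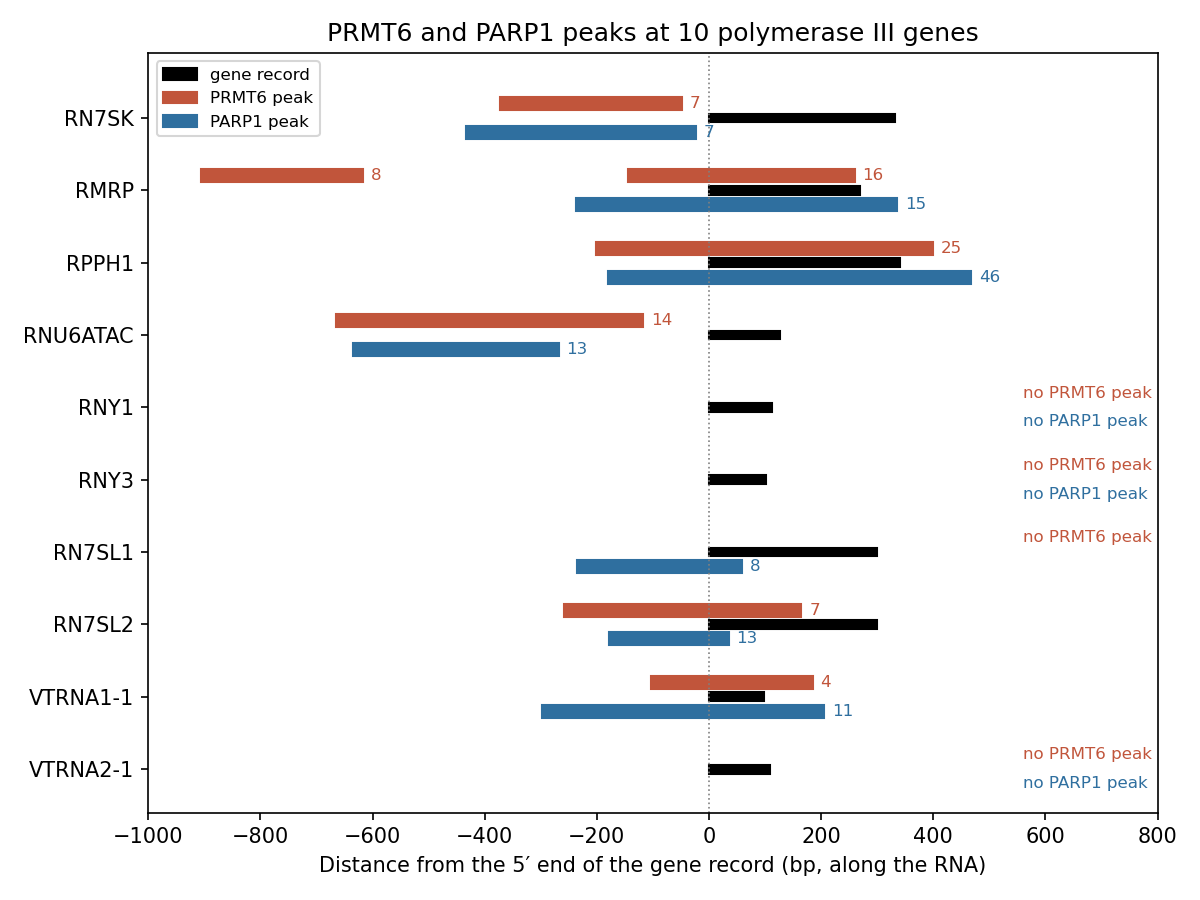
Positions of PRMT6 (red) and PARP1 (blue) peaks within 1 kb of each gene, in bp from the 5′ end of its record (black) along the direction of the RNA; the number beside each peak is the number of fragments at its highest point. Peaks cover the records of RMRP, RPPH1 and VTRNA1-1 and lie upstream of RN7SK and RNU6ATAC, and RNY1, RNY3 and VTRNA2-1 have none.

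The score in each list is the −log10 p-value of the peak caller. It depends on depth, so peaks were compared between the lists by rank and percentile, where 100 is the highest score in a list. A score could be turned back into the number of fragments at the highest point of the peak and in the 10 kb around it. That 10 kb, the local background below, holds the peak itself, so its own fragments are counted in it. At RPPH1, for example, 25 PRMT6 fragments stood against a background of 38 per 10 kb, and 46 PARP1 fragments against 118. Folds over the local background are therefore not folds over the flanks of a peak. Over a whole list the median was 4 fragments for PRMT6 and 6 for PARP1. The best peaks of the members held 4 to 46 fragments, so most of these values carry wide intervals. The background floor implied by the scores was 3.29 times higher in the PARP1 library.

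RPPH1, the RNA subunit of RNase P that cuts the 5′ leader from precursor tRNAs, had the highest peaks of the group. Its record is chr14:20343071-20343411. The PRMT6 peak at chr14:20343012-20343613 scored 26.0, rank 65 of 9080 (percentile 99.3), and held 25 fragments. The PARP1 peak at chr14:20342944-20343591 scored 42.8, rank 13 of 11651 (percentile 99.9), and held 46 fragments. These were 22.8 times (14.7 to 33.6, Poisson 95% interval) and 19.4 times (14.2 to 25.9) the local 10 kb background. Both peaks cover all 341 bases of the record and share 580 bp. They also cover the octamer and the proximal sequence element core shown above. The gene is read divergently from PARP2, a paralog of PARP1 in DNA repair. The 5′ end of PARP2 lies 224 bp away, 22 bp beyond the PRMT6 peak and 44 bp beyond the PARP1 peak. The part of PARP2 in these peaks was not tested.

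RMRP, the RNA of RNase MRP that takes part in ribosomal RNA processing, had the next highest PRMT6 peak. Its record is chr9:35657750-35658019. The PRMT6 peak at chr9:35657760-35658163 scored 14.5, rank 409 (percentile 95.5), with 16 fragments, 15.0 times (8.55 to 24.3) the local 10 kb background. The PARP1 peak at chr9:35657684-35658256 scored 10.8, rank 1693 (percentile 85.5), with 15 fragments, 9.57 times (5.35 to 15.8). The PARP1 peak contains the PRMT6 peak and covers all 270 bases of the record, of which the PRMT6 peak covers 260. Of the 250 bases shown above, 122 lie under the PRMT6 peak and 215 under the PARP1 peak. Both cover the proximal sequence element core and the TATA box, and the octamer lies under the PARP1 peak only. A second PRMT6 peak of 8 fragments, rank 4076, lies 618 bp from the record. The 5′ end of the divergent gene CCDC107 is 273 bp from that of RMRP and outside the 3 peaks. The part of CCDC107 in these peaks was not tested.

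RNU6ATAC, the U6atac RNA of the minor spliceosome, had its peaks upstream of the gene. Its record is chr9:134164439-134164564, within that of the noncoding gene LOC124902297. The PRMT6 peak at chr9:134164683-134165230 scored 13.2, rank 522 (percentile 94.2), with 14 fragments, and begins 119 bp from the record. The PARP1 peak at chr9:134164833-134165198 scored 11.1, rank 1567 (percentile 86.5), with 13 fragments, and begins 269 bp from it. They were 15.6 times (8.54 to 26.2) and 12.4 times (6.62 to 21.3) the local background. The PARP1 peak lies wholly inside the PRMT6 peak, and neither covers a base of the record. Their centres are 392.5 and 451.5 bp upstream of the 5′ end.

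RN7SK, the RNA that holds P-TEFb in its inactive complex, had lower peaks, also upstream of the gene. Its record is chr6:52995620-52995951. The PRMT6 peak at chr6:52995248-52995571 scored 7.46, rank 2235 (percentile 75.0), and the PARP1 peak at chr6:52995187-52995596 scored 6.59, rank 5592 (percentile 51.6). Each held 7 fragments, 15.1 times (6.09 to 31.2) and 11.6 times (4.67 to 23.9) the local background. The peaks end 49 and 24 bp before the record, and both span the 5′ end of GSTA4, a divergent glutathione S-transferase gene whose 5′ end is 336 bp from that of RN7SK. Peaks here can therefore not be assigned to 1 of the 2 genes by position.

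RNY1 and RNY3, the remaining type 3 genes, encode Y RNAs and lie near each other on chromosome 7. Neither had a peak within 1 kb. The nearest PRMT6 peak was 41.1 kb from RNY1 and 44.5 kb from RNY3, and the nearest PARP1 peak 41.3 and 42.2 kb.

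RN7SL2 and RN7SL1 encode the 7SL RNA. The record of RN7SL2, chr14:49862551-49862849, lies within that of the noncoding gene LOC105378179. Its PRMT6 peak at chr14:49862685-49863108 scored 6.90, rank 2628 (percentile 70.7), with 7 fragments, 12.7 times (5.13 to 26.3) the local background. The PARP1 peak at chr14:49862815-49863028 scored 11.5, rank 1423 (percentile 87.8), with 13 fragments, 13.5 times (7.17 to 23.0). Both span the 5′ end, and they cover 165 and 35 of the record's 299 bases. The record of RN7SL1, chr14:49586580-49586878, lies within that of RPS29, a ribosomal protein gene. Its PARP1 peak at chr14:49586345-49586638 scored 8.03, rank 3581 (percentile 68.9), with 8 fragments, 14.2 times (6.14 to 28.0) the local background. The nearest PRMT6 peak was 12.3 kb away. A PRMT6 peak with the same fold over the library floor would have held 3.5 fragments, where listed PRMT6 peaks held a median of 4. The part of depth in the missing peak was not tested.

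VTRNA1-1, chr5:140711276-140711373, showed the widest gap between the lists. The PRMT6 peak at chr5:140711172-140711460 scored 4.50, rank 6748 (percentile 24.8), with 4 fragments, 11.5 times (3.14 to 29.5) the local background. The PARP1 peak at chr5:140710978-140711480 scored 10.3, rank 1959 (percentile 83.1), with 11 fragments, 14.0 times (7.01 to 25.1). Both cover all 98 bases of the record, whose 5′ end is also that of the noncoding gene LOC105378198. VTRNA2-1, at chr5:136080491-136080598, had no PRMT6 peak within 59.7 kb and no PARP1 peak within 21.7 kb.

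**Figure D2:**
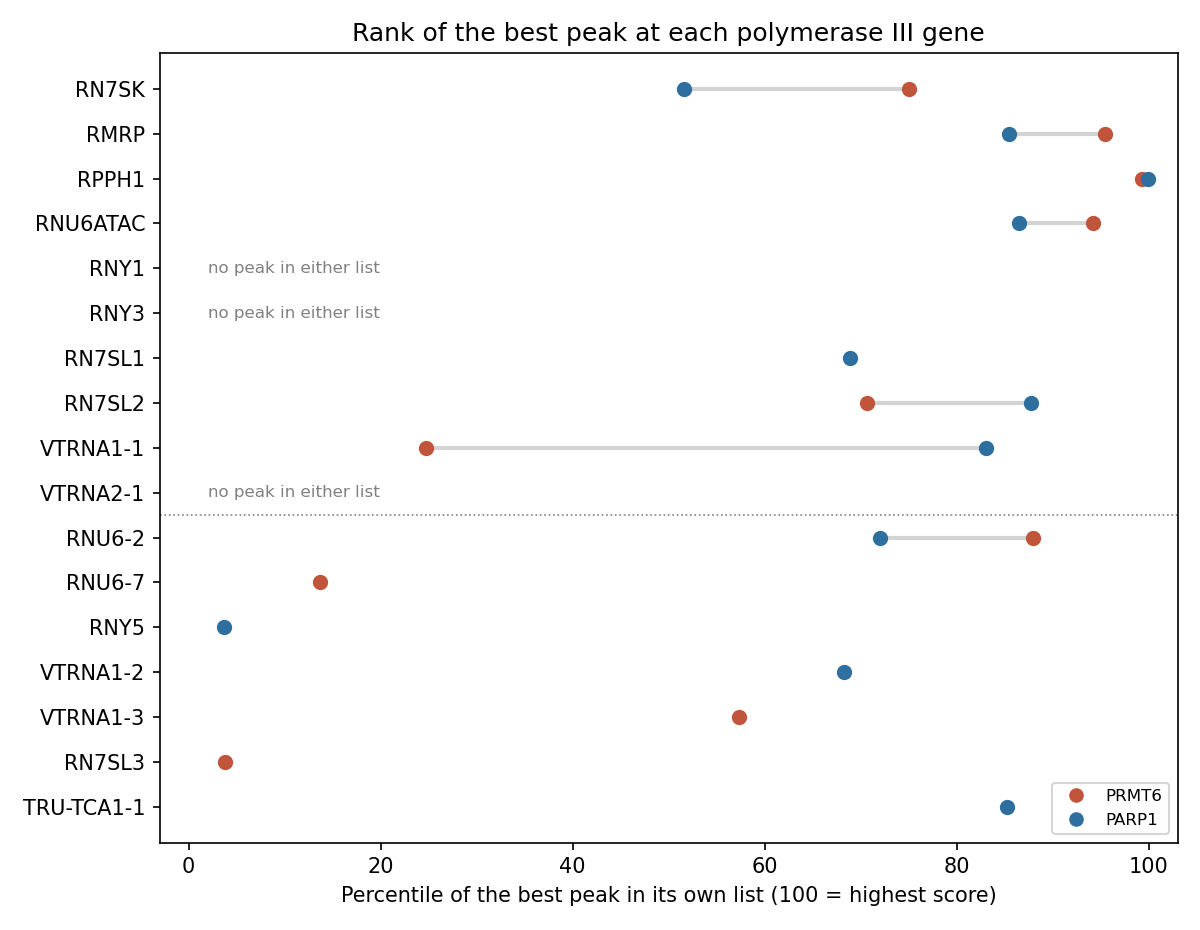
Percentile of the best peak within 1 kb of each gene in the PRMT6 list (red) and the PARP1 list (blue), where 100 is the highest score; the 10 members are above the dotted line and the other polymerase III genes with a peak below it. RPPH1 stands at 99.3 and 99.9, and VTRNA1-1 is the most divided, at 24.8 and 83.1.

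The percentile was higher in the PARP1 list for 4 genes (RPPH1, RN7SL1, RN7SL2 and VTRNA1-1) and higher in the PRMT6 list for 3 (RN7SK, RMRP and RNU6ATAC). By promoter type, PARP1 was higher at 1 of the 6 type 3 genes and PRMT6 at 3, while PARP1 was higher at 3 of the 4 type 2 genes and PRMT6 at 0. RN7SL1 counts as higher in PARP1 because it has no PRMT6 peak. Counted in the same way, the percentile was higher in the PARP1 list at 60.3% of the 615 records of at most 1 kb with a peak, and at 50.2% of the 269 with peaks in both lists. The split depended on the scale. Over the local background, which includes each peak's own fragments, PRMT6 had the higher fold at 4 of the 6 genes with both peaks. Over the floor of each library it had the higher fold at 5 of 6, among them RPPH1 (264 against 212 times) and RN7SL2 (73.9 against 60.0 times), and VTRNA1-1 was the exception (42.2 against 50.8 times). On both scales the Poisson intervals of the libraries overlapped at all 6 genes. The median percentile of the members with a peak was 84.6 among PRMT6 peaks and 85.5 among PARP1 peaks, against 72.7 and 69.4 for all records of at most 1 kb with a peak. Among the relatives described below the polymerase II snRNA genes had medians of 72.0 and 99.4, the latter above that of the members. The medians were 68.4 and 61.8 for tRNA genes, 35.5 and 70.1 for other polymerase III genes and 59.1 and 60.9 for pseudogenes.

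**Figure D3:**
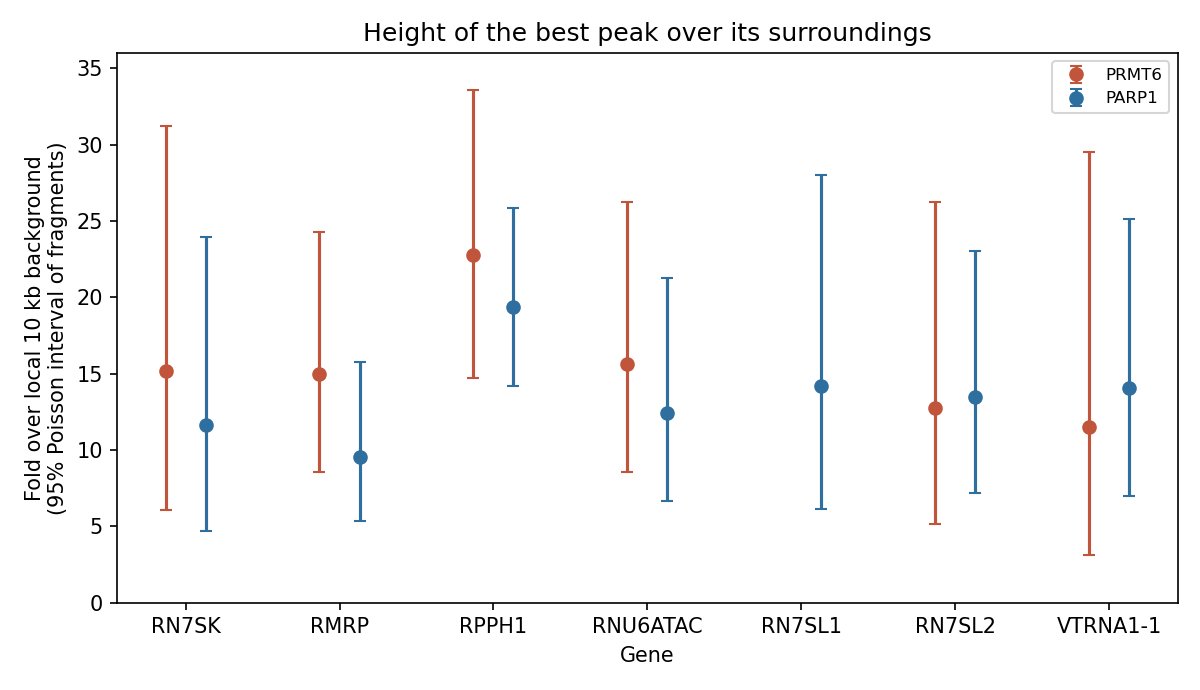
Fragments at the highest point of the best peak over the number expected from the local 10 kb, for the 7 members with a peak. The 10 kb includes the peak's own fragments, and the Poisson 95% intervals cover counting error only. The PRMT6 (red) and PARP1 (blue) intervals overlap at each of the 6 genes with both.

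The members differ in how many near copies their RNAs have in the genome. Words of 32 bases were counted as a measure, since the read length is not given in the sources used here. In GRCh37, 100% of the words in the RMRP RNA and in the transcript that holds RPPH1 occurred once, and 94.1% in VTRNA1-1. The share was 74.2% in VTRNA2-1, 17.9% in RNU6ATAC, 12.3% in RN7SK, 6.10% in RNY1, 4.51% in RN7SL2 and 0% in RNY3. The upstream stretches of RN7SK, RMRP, RPPH1 and RNY1 were unique over 100% of their words, and that of VTRNA1-1 over 94.5%. Peaks covered the whole record or nearly so at RMRP, RPPH1 and VTRNA1-1, and no base of it at RN7SK and RNU6ATAC. At RN7SL2, with few unique words, the PRMT6 peak covered 165 and the PARP1 peak 35 of 299 bases, and at RN7SL1, whose RNA sequence was not analysed here, the PARP1 peak covered 59. How reads with several matches were treated is not given in the sources used here, and the part of copy number in these positions was not tested.

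Peaks were also counted at relatives of the members. Of 29 other polymerase III genes, 7 had a peak in either list, and none of the 17 5S ribosomal RNA genes among them did. Without the 5S genes, 7 of 12 had a peak in either list. A PRMT6 peak stood at 4 of these 12 and a PARP1 peak at 4 (each 33.3%, 9.92% to 65.1%). These intervals overlap those of the members. RNU6-2, a U6 snRNA gene with a type 3 promoter, had overlapping peaks in both lists, rank 1088 for PRMT6 and 3265 for PARP1. TRU-TCA1-1, the selenocysteine tRNA gene, had a PARP1 peak of rank 1699. Of the other vault RNA genes, VTRNA1-2 had a PARP1 peak of rank 3641 and VTRNA1-3 a PRMT6 peak of rank 3713. RNY5 had a PARP1 peak near the end of that list, rank 11208. RN7SL3 had a PRMT6 peak of 2 fragments 602 bp away, rank 8412, and RNU6-7 one 456 bp away, rank 6841.

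Among the genes most like the members, those for the polymerase II snRNAs of the spliceosome share the proximal sequence element and SNAPc but are read by another polymerase. Of 41 such records, 14 had a PRMT6 peak (34.1%, 20.1% to 50.6%) and 26 a PARP1 peak (63.4%, 46.9% to 77.9%). The percentile was higher in the PARP1 list at 26 of these 26, of which 14 had peaks in both lists and the rest count as higher because they had no PRMT6 peak. It was higher there at 4 of the 7 members with a peak. Of the snRNA genes, RNU2-2, RNVU1-6 and RNVU1-27 ranked best for PRMT6 (352, 992 and 1012) and RNU2-2, RNU12 and RNVU1-6 for PARP1 (2, 3 and 4). Of 443 tRNA gene records, which mostly have type 2 promoters, 66 had a PRMT6 peak (14.9%, 11.7% to 18.6%) and 119 a PARP1 peak (26.9%, 22.8% to 31.2%). The percentile was higher in the PARP1 list at 83 of the 126 with a peak and in the PRMT6 list at 43, counted in the same way. TRQ-TTG1-1, TRT-AGT1-3 and TRI-TAT1-1 ranked best for PRMT6 (166, 275 and 503), and TRG-CCC4-1, TRQ-TTG1-1 and TRA-AGC8-1 for PARP1 (136, 262 and 485).

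Pseudogenes of the members, whose upstream sequence was not analysed here, had few peaks. Of 1096 records, 13 had a PRMT6 peak (1.19%, 0.633% to 2.02%) and 15 a PARP1 peak (1.37%, 0.768% to 2.25%). The best were RN7SL525P, RN7SKP175 and RN7SL353P for PRMT6, ranks 95, 894 and 1112, and RN7SL525P, RN7SL353P and RN7SKP11 for PARP1, ranks 102, 333 and 690.

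**Figure D4:**
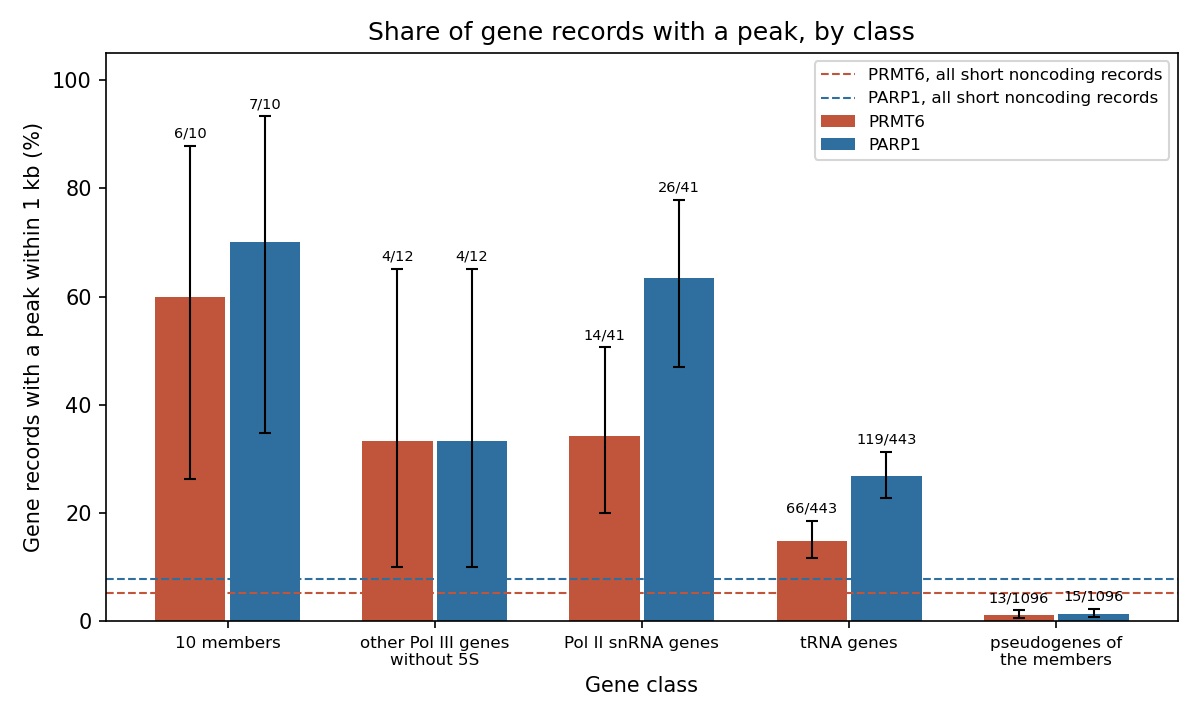
Share of gene records with a PRMT6 (red) or PARP1 (blue) peak within 1 kb in each class, with exact binomial 95% intervals and counts above the bars; dashed lines are the shares over all short noncoding records, 5.29% and 7.82%. The members stand at 60% and 70%, other polymerase III genes without 5S at 33.3% in each list, and polymerase II snRNA genes at 34.1% and 63.4%. The tRNA genes stand at 14.9% and 26.9%, and pseudogenes of the members at 1.19% and 1.37%.

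The protein-coding genes of polymerase III and its factors were counted at their 5′ ends. Of 33, 12 had a PRMT6 peak (36.4%, 20.4% to 54.9%), 16 a PARP1 peak (48.5%, 30.8% to 66.5%) and 10 overlapping peaks of both (30.3%, 15.6% to 48.7%). The 3 with the best mean percentile among those with both peaks were ZNF143, SNAPC1 and POU2F1. ZNF143, which binds the distal element, had ranks 414 for PRMT6 and 202 for PARP1. SNAPC1, a SNAPc subunit, had ranks 19 and 1465, and POU2F1, the octamer-binding factor, ranks 891 and 866. Of the other SNAPc subunit genes, SNAPC2, SNAPC3 and SNAPC4 had no peak in either list. SNAPC5 had only a PARP1 peak, of rank 9451. Neither list had a peak at 15 of the 33 genes. The shares at the 5′ ends of all coding genes were 16.3%, 20.0% and 11.7%.

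Genes for proteins that bind the members' RNAs had a PRMT6 peak in 12 of 37 cases (32.4%, 18.0% to 49.8%) and a PARP1 peak in 13 (35.1%, 20.2% to 52.5%). Overlapping peaks of both stood at 7 (18.9%, 7.96% to 35.2%), an interval that holds the 11.7% of all coding 5′ ends, and the lower ends of the other intervals lay near 16.3% and 20.0%. For the 7SK particle, CCNT2 (ranks 1604 and 619 for PRMT6 and PARP1), MEPCE (2047 and 1073) and HEXIM1 (473 and 3269) had both peaks, out of 7 genes. CCNT2 is a cyclin of P-TEFb, MEPCE caps 7SK and HEXIM1 inhibits P-TEFb on it. For the signal recognition particle SRP9 (2527 and 1754) and SRP54 (3713 and 3398) had both, out of 6. RPP40 (2235 and 2297), a protein of RNase P and RNase MRP, was the only 1 of 11 such genes with both. RO60, which binds Y RNAs, had both (3935 and 3238) although RNY1 and RNY3 had neither. None of the 3 vault genes and none of the 9 minor spliceosome genes had both.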

How the data were processed

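Chromatin of MDA-MB-231 cells was profiled with 1 library per antibody. The study's methods and the labels mix CUT&Tag, a tagmentation assay, with a ligation protocol, so the chemistry is uncertain. Per the submitters' processing notes, CASAVA 1.4, Bowtie 0.12.8, MACS, MACS2 and hg19 were named, with no roles given. The authors deposited 1 peak list per library. Its score is the −log10 p-value deposited by the authors, with no correction for depth.

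Although hg19 is named, 55 PRMT6 peaks on 7 chromosomes and 61 PARP1 peaks on 5 end beyond GRCh37 chromosome ends, so RefSeq records of GRCh38.p14 were used. A peak belonged to a gene if within 1 kb of its record. The 5′ end of a coding gene needs a strand, which existed for 19719 of 20050 coding records. Scores were read as the Poisson tail of a whole number of fragments over the local 10 kb, which worked for 99.7% of PRMT6 and 99.5% of PARP1 scores (tolerance 1e-05). If the caller counts the tail differently, each number of fragments is 1 higher. This reading was added after seeing the data. Its floor, taken as the lowest background the caller used, was inferred from only 2 repeated scores for PRMT6 and 3 for PARP1. The floor was 3.28 PRMT6 and 10.8 PARP1 fragments per 10 kb, which stands in for depth. Fragment lengths of 289 and 201 bases were assumed from the smallest peak widths. Intervals are exact and cover counting error only.

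Members and lists were chosen with earlier results of these data known. The members, genes with a 5′ end within 1 kb of a member peak, other polymerase III genes with a peak, the 3 machinery or partner genes with the best mean percentile in each list and the 3 best-ranked of each comparison class were named. The other SNAPc subunit genes were named later. The members are not in the promoter table, so the planned motif search used neighbours' windows, and the GENCODE 44 transcripts. The shorter A box was added later. Peak sequences were not analysed here. Python 3.11.15, numpy 2.4.6, pandas 2.3.3, scipy 1.17.1 and matplotlib 3.10.9 were used, and the code was tested on simulated data.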

Additional observations from a re-analysis of the deposited data

How the results depend on the processing

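Of 35 recomputed counts of members with a PRMT6 peak, a PARP1 peak, overlapping peaks or a higher percentile in PARP1, 31 stayed within 1.5 times the reported count. That limit is wide for 10 genes. Where a peak had to overlap the record, the first 3 counts were 4, 5 and 4, against 6, 7 and 6 reported. The alternatives were windows from overlap with the record to 3 kb, the 5′ end, the higher-scoring 50% of each list, equal list lengths, peaks above the smallest width, stricter overlaps and the nearest peak. The other 4 used GRCh37 records, which exist under these names for 8 members. There the counts were 1, 1, 1 and 0. The single match was RMRP, whose position hardly differs between the builds. The PRMT6 peak of VTRNA1-1 has the smallest width and a low score, and it is absent without such peaks or in the higher-scoring 50%. No paired analysis was possible because there is 1 library for each antibody. The members' best peaks held 4 to 46 fragments, and at these numbers the fold intervals of the libraries overlapped at all 6 genes with both peaks.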
